A study of Mus musculus with 4 samples.

Results

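The genes of the phagocyte NADPH oxidase were followed in mouse bone marrow cultures that differentiated in orbit or on the ground. The members were Cybb, Cyba, Ncf1, Ncf4, Rac1 and Rac2, and they were found by gene symbol in the annotation of the array, which gave 13 probe sets of 45101 on the array. A probe set is a group of short oligonucleotides that together report 1 transcript near its 3' end. Cybb, Ncf1 and Rac1 had 3 probe sets each, Rac2 had 2, and Cyba and Ncf4 had 1 each. Of the 13, 12 were bright enough to be tested.

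The study asked how macrophages form in culture during space flight. Marrow of 21 adult C57BL/6 mice was pooled, freed of red cells and sealed in glass barrels with macrophage colony-stimulating factor (M-CSF, 1.5 µg/ml), which drives marrow progenitors towards macrophages. The space flight group was incubated at 37 °C on a space shuttle and the ground control group in parallel on Earth. Both groups received medium with M-CSF on culture day 6 and were stopped by lysis in guanidinium after 15 days of culture, on day 14 of flight. Each of the 4 arrays held RNA from 2 barrels, with 2 arrays per group. All barrels shared the same marrow pool, so the spread between arrays holds no spread between animals. The pools put on arrays were chosen for RNA quality, with an RNA integrity number of 3, that is, degraded RNA.

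The phagocyte oxidase moves electrons from NADPH across a membrane to oxygen and so makes superoxide, which macrophages and neutrophils use against ingested microbes. Cybb encodes its catalytic flavocytochrome subunit and Cyba the partner that stabilises it in the membrane. In resting cells Ncf1, the organiser, and Ncf4, which binds a phosphoinositide of the phagosome, wait in the cytosol. On stimulation they move to the flavocytochrome together with a Rac GTPase. Rac2 is restricted to blood cells, while Rac1 is made by most cells and also steers the actin skeleton.

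By the brightest probe set of each of the 6 genes, Cybb showed the largest difference, with a level 2.43-fold lower in space flight. Ncf4, Ncf1 and Rac2 stood 1.48-fold, 1.31-fold and 1.23-fold lower by the same measure. In each of these 4 cases both space flight arrays lay below both ground control arrays. The dimmer measured probe sets of Cybb, Ncf1 and Rac2 overlapped between groups, with differences from −0.12 to 0.15. Averaged over the measured probe sets of a gene, the difference was −0.46 for Cybb and −0.57 for Ncf4, which has 1 probe set. Cyba had a difference of −0.015, with groups that overlapped. None of the 12 tested probe sets passed limma's test at an adjusted p of 0.05, and 2 of them, of Cybb and Ncf4, had an unadjusted p under 0.05. Of all 22519 measured probe sets, 0.0488% passed the adjusted threshold and 12% the unadjusted one. The 4 probe sets with both flight values below compare with 22.5% of all measured probe sets, and 0 members had both flight values above, where 20.7% of all probe sets did. The median difference was −0.07 over the 12 probe sets and −0.018 over all measured ones. Taking the brightest probe set of each gene, it was −0.35 over the 6 members and 0.015 over 11141 measured genes. Levels are quantile normalized log2(intensity + 16), differences are space flight minus ground control on that scale, and a fold on it understates the change of dim probe sets. In this bulk RNA, fewer cells that express a gene and less RNA per cell cannot be told apart.

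**Figure D1:**
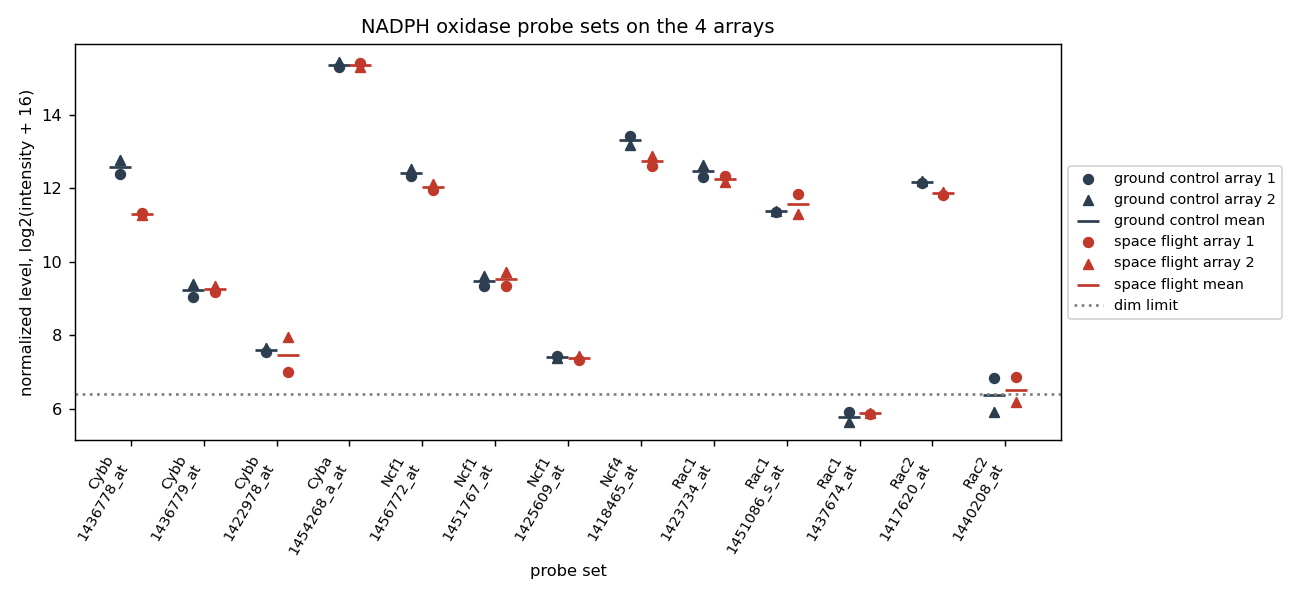
Normalized level, log2(intensity + 16), of the 13 oxidase probe sets (horizontal axis) on each array. Circles and triangles are arrays 1 and 2 of a group, short bars are group means, and the dotted line is the dim limit of 6.40. Cybb 1436778_at has both space flight values near 11.3 and both ground control values above 12.3, while Cyba 1454268_a_at overlaps.

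Cybb, the electron-carrying subunit gp91phox, was read by 3 probe sets that did not give the same picture. On 1436778_at, the brightest, space flight arrays 1 and 2 had 11.32 and 11.28. Ground control arrays 1 and 2 had 12.38 and 12.78. The deposited intensities behind these levels were 2569 and 2358 in flight and 5230 and 7174 on the ground. The flight arrays were within 0.039 of each other, the ground arrays were 0.40 apart, and the groups did not overlap. The difference was −1.28 ± 0.23 (SE, n = 2 arrays per group), with a 95% interval from −1.80 to −0.77, an unadjusted p of 0.000282 and a limma adjusted p of 0.103. By p this probe set ranked 61 of 22519. On 1436779_at the flight arrays had 9.16 and 9.34 and the ground arrays 9.03 and 9.40. The groups overlapped there, and the difference was 0.034 ± 0.32 (SE). On 1422978_at the flight arrays had 7.00 and 7.94, on either side of the ground values of 7.53 and 7.65. Its difference was −0.12 ± 0.46 (SE). The lower level of Cybb thus rests on 1 of its 3 probe sets, and whether the probe sets differ from each other was not tested.

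The Cybb difference on 1436778_at kept its sign under all 13 alternatives, from −1.51 with each array shifted to 1 median to −1.08 without ground control replicate 2. Only the scalings and pseudocounts could have turned that sign. With groups that did not overlap, leaving out 1 array could not, and the other filters and fits left the difference itself unchanged. Among the fits that left out 1 array, it was called lower without space flight replicate 1 (−1.30, adjusted p = 5.56e-05) and without space flight replicate 2 (−1.26, adjusted p = 0.000485), where the moderated limma test had 101.8 and 49.49 degrees of freedom against 9.313 with all arrays. In these 2 fits 12.7% and 7.56% of all measured probe sets were called, and 1 and 2 of the members. Without ground control replicate 1 it stood at −1.48 (adjusted p = 0.488) and without ground control replicate 2 at −1.08 (adjusted p = 0.676). Counted with 1 probe set per gene, its adjusted p was 0.0702.

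**Figure D2:**
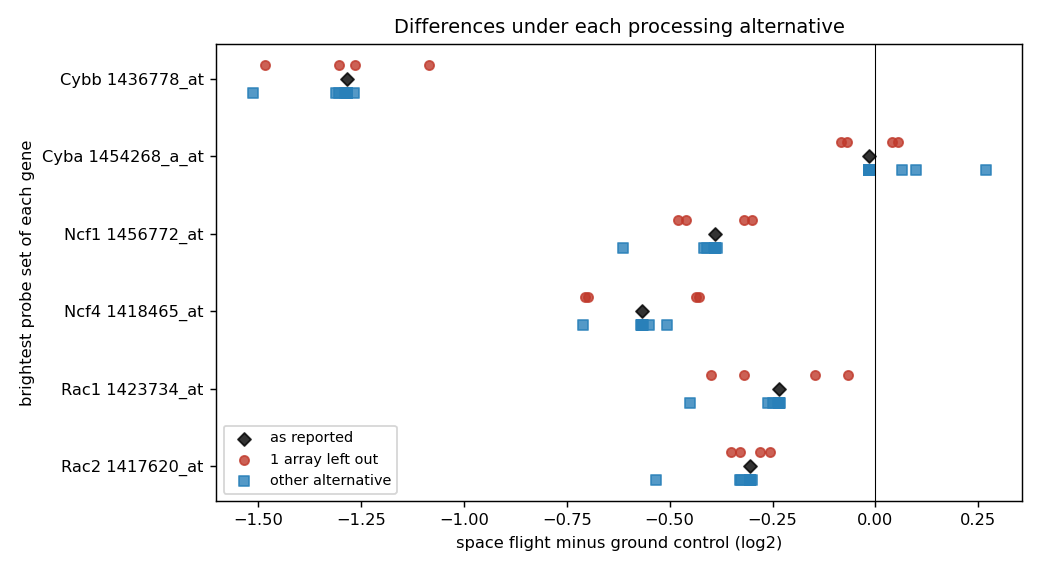
Space flight minus ground control (log2, horizontal axis) for the brightest probe set of each gene: as reported (diamonds), with 1 array left out (circles) and under the other alternatives (squares). Cybb lies between −1.51 and −1.08 throughout, Ncf1, Ncf4, Rac1 and Rac2 stay below 0, and Cyba falls on both sides of 0.

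Cyba, which encodes the small subunit p22phox, was read by 1454268_a_at, of the class that covers several transcript forms of a gene. It had 15.41 and 15.30 on the flight arrays and 15.30 and 15.44 on the ground arrays. These levels lay near the top of the scale, at percentile 99.9 of all probe sets by mean, where the highest normalized value was 16.01. The groups overlapped, with a difference of −0.015 ± 0.12 (SE) and a 95% interval from −0.28 to 0.25, so a ground level from 0.840 to 1.22 times the flight level lies within the interval. The SE was 0.31 with intensities as deposited and 0.28 with no intensity trend, so the width of the interval depends on the processing. The deposited intensities ran from 36556 to 57861 in flight and from 35241 to 41380 on the ground, and the highest, on space flight array 2, was brought to the others' level by the normalization. The sign of the difference was not stable, at 0.27 with intensities as deposited, 0.099 with cyclic loess, and 0.065 with arrays shifted to 1 median, a scaling under which the median of all measured probe sets moved to −0.18.

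The promoters of 3 of the 6 members were in the RefSeq table of assembly GRCm38.p6, and all 3 are shown whatever their differences. Those of Ncf4, Rac1 and Rac2 were not available. Each runs 5' to 3' on the gene's strand, the minus strand in all 3, from 250 bases before the annotated transcription start to 20 bases after it. Capitals mark 2 motifs searched on both strands. The first is GAGGAA, the core bound by Spi1 (PU.1), the myeloid master regulator. The second is GAAA followed by 2 bases of any kind and GAAA again, an element of interferon regulatory factors, the family of Irf1 and Irf8.
Cybb, chrX:9469305-9469574: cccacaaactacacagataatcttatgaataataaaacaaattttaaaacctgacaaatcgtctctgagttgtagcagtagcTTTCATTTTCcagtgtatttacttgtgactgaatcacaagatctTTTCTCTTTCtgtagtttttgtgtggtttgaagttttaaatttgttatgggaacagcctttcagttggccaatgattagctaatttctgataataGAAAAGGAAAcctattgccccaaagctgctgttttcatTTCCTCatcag
Ncf1, chr5:134229606-134229875: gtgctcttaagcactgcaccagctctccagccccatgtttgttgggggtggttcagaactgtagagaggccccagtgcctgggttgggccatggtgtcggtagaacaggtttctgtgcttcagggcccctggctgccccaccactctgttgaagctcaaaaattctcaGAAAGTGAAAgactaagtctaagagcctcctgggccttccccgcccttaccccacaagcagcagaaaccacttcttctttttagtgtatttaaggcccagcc
Cyba, chr8:122432921-122433190: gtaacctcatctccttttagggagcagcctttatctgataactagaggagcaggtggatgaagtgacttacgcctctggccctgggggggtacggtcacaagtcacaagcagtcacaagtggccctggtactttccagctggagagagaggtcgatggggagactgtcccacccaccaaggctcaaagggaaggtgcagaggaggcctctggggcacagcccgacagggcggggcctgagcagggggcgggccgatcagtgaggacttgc
The Cybb window held 1 GAGGAA, on the opposite strand at bases 10 to 15 after the start. It also held 3 matches to the interferon element, the nearest of them at −29 to −20 on the gene's own strand. The Ncf1 window held 1 match to the interferon element, at −82 to −73, and 0 to GAGGAA. The Cyba window held 0 of either, and was 60% G and C where that of Cybb was 34.1%. Over 32851 promoter windows of the same 270 bases, 25.1% held GAGGAA and 3.21% held the interferon element, so the former is common. These windows were not matched to those of the members for their share of G and C. No motif letters overlapped those of the other motif. A match describes letters in the window and is not evidence of binding.

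Ncf1, the organiser p47phox that carries the phosphorylation switch of the complex, stood lower on the brightest of its 3 probe sets. On 1456772_at the flight arrays had 11.96 and 12.10 and the ground arrays 12.33 and 12.51. Both flight values were below both ground values, and the difference was −0.39 ± 0.20 (SE; limma adjusted p = 0.491), with an interval from −0.85 to 0.071 that includes 0. On 1451767_at the values were 9.33 and 9.73 in flight and 9.34 and 9.61 on the ground. On 1425609_at they were 7.32 and 7.44 in flight and 7.44 and 7.36 on the ground. Both dimmer probe sets overlapped between groups, with differences of 0.052 ± 0.32 and −0.022 ± 0.42 (SE).

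Ncf4, the cytosolic subunit p40phox, had the second largest difference of the members by their brightest probe sets. Its only probe set, 1418465_at, had 12.59 and 12.87 on the flight arrays and 13.43 and 13.17 on the ground arrays. Both flight values lay below both ground values, by a margin close to the gaps within groups, which were 0.28 and 0.26. The difference was −0.57 ± 0.19 (SE), with an interval from −1.00 to −0.13, an unadjusted p of 0.0161 and a limma adjusted p of 0.293. Leaving out 1 array moved it between −0.71 and −0.43. It was called lower in one of these fits, without space flight replicate 2 (−0.71, adjusted p = 0.0311).

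Rac2, the GTPase of blood cells, had 11.81 and 11.91 in flight and 12.14 and 12.19 on the ground on 1417620_at. Each group was tight, with gaps of 0.097 and 0.049, and the groups did not overlap. The difference was −0.30 ± 0.21 (SE; limma adjusted p = 0.600), with an error that limma draws partly from other probe sets of like brightness. Its other probe set, 1440208_at, sat just inside the dim limit of 6.40, with 6.87 and 6.17 in flight and 6.84 and 5.90 on the ground. The arrays of each group were further apart there than the group means, which differed by 0.15 ± 0.60 (SE).

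Rac1, the widely expressed GTPase, pointed in opposite directions on its 2 measured probe sets. On 1423734_at the flight arrays had 12.33 and 12.16 and the ground arrays 12.31 and 12.64, a difference of −0.23 ± 0.21 (SE). On 1451086_s_at, whose class can also bind transcripts of other genes, they had 11.84 and 11.31 against 11.34 and 11.39, a difference of 0.21 ± 0.26 (SE). The groups overlapped on both, and the adjusted p-values were 0.703 and 0.794. The third probe set, 1437674_at, lay below the dim limit with 5.85 and 5.89 in flight and 5.90 and 5.62 on the ground, and was not tested. Rac1 and Rac2 are close relatives in sequence, and how far their probes share targets was not examined.

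**Figure D3:**
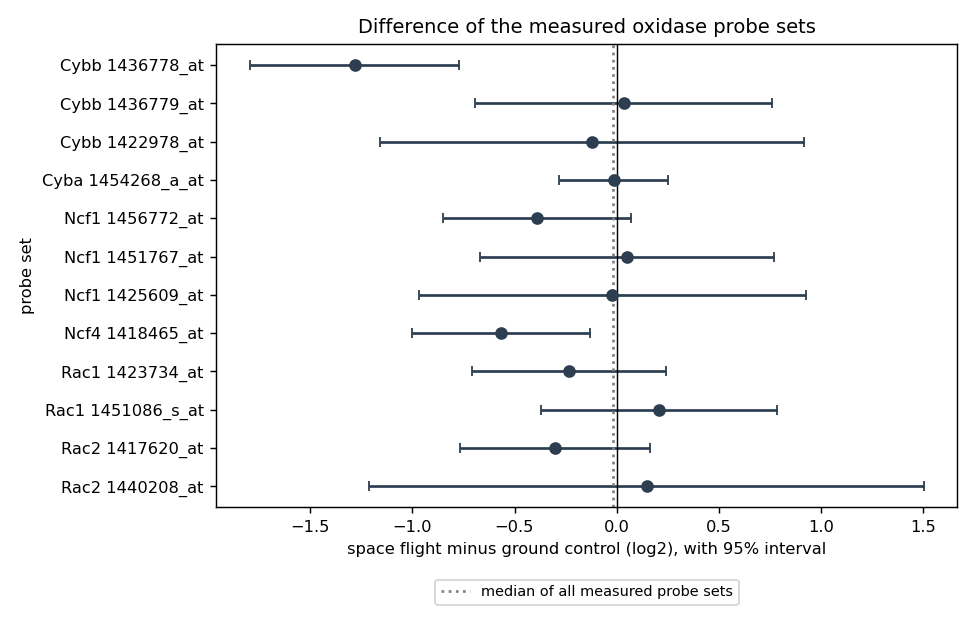
Space flight minus ground control (log2, horizontal axis) of the 12 measured oxidase probe sets, with 95% intervals from the moderated limma fit. The dotted line is the median of all measured probe sets, −0.018. The intervals of Cybb 1436778_at (−1.80 to −0.77) and Ncf4 1418465_at (−1.00 to −0.13) lie below 0, and the other 10 include 0.

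The other genes of the pathway were taken from 6 lists with 76 genes, of which 62 were matched to a probe set by symbol and 55 were measured. Limma's test passed 0 of the 55 in either direction, with 4 higher and 11 lower at an unadjusted p under 0.05. Over all measured genes, 0.0269% passed, and 6.22% were higher and 6.69% lower at the unadjusted threshold. The median difference of the 55 was −0.16, with 35 below 0 and 20 above, against 48.8% of all measured genes below 0. Both flight values lay below both ground values for 21 of them and above for 14, where 22.5% and 23% of all measured genes were so placed. Without space flight replicate 1, 11 of the 55 were called, 3 higher and 8 lower, and without space flight replicate 2, 8 of 54 were, 2 higher and 6 lower, beside 12.7% and 7.56% of all measured probe sets in those fits. The lowest medians were those of kinases and lipid enzymes (−0.34) and of triggering receptors (−0.27), and the highest was that of transcription factors (0.26).

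Beside the members, the oxidase has a chaperone and a proton channel that balances the charge it moves. Hvcn1, the proton channel, had 12.06 and 11.96 in flight and 12.21 and 12.61 on the ground, a difference of −0.40 ± 0.22 (SE; limma adjusted p = 0.506). Cybc1, the chaperone needed for the flavocytochrome to mature, had 10.65 and 11.00 in flight and 10.38 and 10.50 on the ground, a difference of 0.39 ± 0.27 (SE; adjusted p = 0.604). Neither overlapped between groups, and they pointed opposite ways. The 5 other matched genes of this list were below the dim limit.

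Kinases and lipid enzymes that act in assembly had the lowest median, −0.34 over 15 genes; 0 passed the test, and 4 were lower and 0 higher at an unadjusted p under 0.05. Pik3cg, the phosphoinositide kinase coupled to chemoattractant receptors, had 9.63 and 9.64 in flight and 10.87 and 10.96 on the ground, a difference of −1.28 ± 0.27 (SE; limma adjusted p = 0.147). Its other measured probe set gave −0.29. Mapk14, the p38 kinase that phosphorylates Ncf1, had 10.95 and 11.01 in flight and 12.01 and 12.15 on the ground, a difference of −1.10 ± 0.23 (SE; adjusted p = 0.145). Its other measured probe sets gave −1.37, −0.67 and 0.38, and those below the dim limit, not tested, gave 1.68 and −0.38. Prkcb, a protein kinase C that also acts on Ncf1, had 11.80 and 11.94 against 12.89 and 12.64, a difference of −0.90 ± 0.21 (SE; adjusted p = 0.169), and −0.81 on its other measured probe set. On the brightest probe sets of these 3 genes the flight arrays lay close together and below both ground arrays, as for Cybb.

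Receptors that trigger the oxidase lay mostly below 0, with 9 below and 3 above. Of 12 measured genes 0 passed the test, 4 were lower and 1 higher at an unadjusted p under 0.05, and the median was −0.27. Fcgr3, a receptor for antibody-coated particles, had 12.68 and 12.47 in flight and 13.52 and 13.67 on the ground, a difference of −1.02 ± 0.18 (SE; limma adjusted p = 0.103). Clec7a, the receptor for fungal beta-glucan, had 12.54 and 12.90 against 13.30 and 13.62 (−0.74 ± 0.20, SE; adjusted p = 0.209). Fpr2, a receptor for formyl peptides that neutrophils carry, lay on the other side, with 9.16 and 9.17 in flight and 7.58 and 8.05 on the ground (1.35 ± 0.36, SE; adjusted p = 0.200).

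Of 6 measured transcription factors known to act on oxidase genes, 0 passed the test, with 1 higher and 1 lower at an unadjusted p under 0.05. Spi1 had 11.04 and 11.16 in flight and 10.62 and 10.69 on the ground, a difference of 0.44 ± 0.25 (SE; limma adjusted p = 0.519). The part of Spi1 or of the other factors in the Cybb value was not tested. Irf8 had 10.20 and 10.75 against 10.91 and 11.23 (−0.60 ± 0.29, SE; adjusted p = 0.457), but 0.088 on its other probe set. Elf1, a factor of the same ETS family as Spi1, stood at −0.64 ± 0.28 (SE; adjusted p = 0.409). Cebpb had 13.27 and 12.88 in flight and 11.90 and 12.00 on the ground, a difference of 1.12 ± 0.21 (SE; adjusted p = 0.126), and 1.54 on its other probe set.

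Enzymes that handle superoxide and peroxide had a median of 0.10 over 9 genes. Limma's test passed 0 of them, with 2 higher and 0 lower at an unadjusted p under 0.05. Mpo, which turns peroxide into hypochlorous acid in neutrophil granules, had 9.37 and 10.08 in flight and 8.06 and 8.55 on the ground (1.42 ± 0.38, SE; adjusted p = 0.199). Gpx4, which reduces lipid peroxides, stood at 0.40 ± 0.14 (SE; adjusted p = 0.290) and Txn1, a thioredoxin, at −0.15 ± 0.13 (SE; adjusted p = 0.673). Another probe set of Txn1 gave 0.54.

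**Figure D4:**
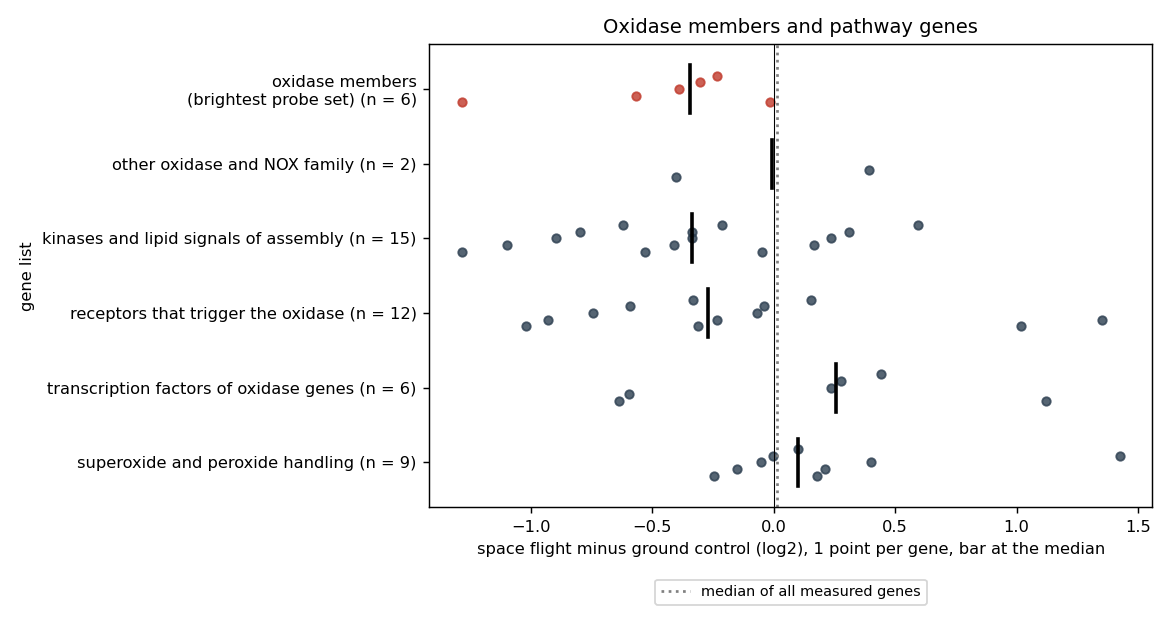
Space flight minus ground control (log2, horizontal axis) of the 6 oxidase members by their brightest probe set and of the measured genes in the pathway lists described here. Each point is a gene, bars are medians, and the dotted line is the median of all measured genes, 0.015. All 6 members lie at or below 0, from −1.28 to −0.015, and the transcription factor list has the highest median, 0.26.

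Of the genes in those lists, the 3 whose level moved across the 4 arrays most like that of Cybb on 1436778_at were Pik3cg, Mapk14 and Fcgr3. Likeness was the root mean square difference of the values after centring each gene on its mean, and was 0.11, 0.13 and 0.17. Among the members, Ncf4, the brightest probe set of Ncf1 and that of Rac2 came nearest to 1436778_at, at 0.44, 0.46 and 0.51. The other probe sets of Cybb itself, 1436779_at and 1422978_at, lay farther from it, at 0.66 and 0.68. These distances describe 4 arrays and carry no test.

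Macrophages and neutrophils both make the oxidase, so the markers of each are given beside the members. Of 12 macrophage markers 10 were measured, with differences from −1.47 to 1.42. The brightest, Lyz2, which neutrophils also make, had 15.26 and 15.24 in flight and 15.32 and 15.30 on the ground. C1qa and Marco had means over the 4 arrays below the dim limit. The summed intensity of the 10, after normalization, was 107673 to 115482 in flight and 131016 to 134330 on the ground. A sum is weighted to the brightest markers, and the median difference of the 10 was −0.03, with 5 above 0 and 5 below. Csf1r, the M-CSF receptor, stood at −0.37 ± 0.12 (SE; limma adjusted p = 0.265). Of 16 neutrophil markers 13 were measured, and 11 of these had both flight values above both ground values, as 23% of all measured genes did. The 13 had a median difference of 1.51, with 12 above 0 and 1 below. Their summed intensity was 86903 to 115067 in flight and 49837 to 52390 on the ground, led by S100a8 and S100a9 with differences of 0.79 ± 0.13 and 1.36 ± 0.28 (SE). Limma's test passed 0 markers of either list, with 1 higher and 4 lower macrophage markers and 11 higher and 1 lower neutrophil markers at an unadjusted p under 0.05. Over all measured genes, 6.22% were higher and 6.69% lower at that threshold. Erythroid markers, 7 of 10 measured, had a median of 1.23, with 5 above 0 and 2 below. Their part in the oxidase values was not tested.

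The arrays differed in RNA quality as well. For the Gapdh control, signal at the 3' end exceeded that at the 5' end 3.33-fold to 4.13-fold on 3 arrays and 15.2-fold on space flight array 2. For Actb the same quotient was 4.91 on that array and 2.30 to 3.08 on the others. The transferrin receptor control ran the other way, with 3.47 on space flight array 2 and 4.96 to 7.84 on the others. Over measured probe sets, differences between the arrays of a group had an SD of 0.82 in flight and 0.51 on the ground. With 1 flight array left out, Cybb on 1436778_at stood at −1.30 and −1.26. Its flight values were within 0.039 of each other, so leaving out either could move the difference only a little. The normalization still used all 4 arrays, and the part of RNA quality in the Cybb value was not tested. Ncf4 moved more, to −0.43 without array 1 and −0.71 without array 2 of the flight group.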

How the data were processed

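Expression was measured in 4 samples on Affymetrix mouse arrays after 2 rounds of amplification, per the labels' protocols. The authors deposited 1 linear intensity per probe set and array, made with GCOS per the submitters' processing notes; its version and the summarising algorithm are not stated in them, and a genome build for the probe sets is not given in the sources used here. The number of arrays limits the precision.

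Control probe sets (64) were left out. Values were taken as log2(intensity + 16) and quantile normalized, because array medians differed by up to 0.38, above a tolerance of 0.1. Probe sets whose mean reached the median of all, 6.40, are called measured. The groups were compared with limma 3.58.1 under R 4.3.3 (lmFit, eBayes with an intensity trend, two-sided) over 22519 measured probe sets, and p-values were adjusted by Benjamini-Hochberg, with 0.05 as the threshold. All p-values come from this test, which had 2 residual and 9.313 moderated degrees of freedom; an exact test of 2 against 2 arrays cannot go below a two-sided p of 0.333. All cultures came from the same marrow pool, so p-values measure only the spread between these cultures, which may be partly technical. Errors are limma standard errors, and intervals are 95%. The procedure was tested on simulated data.

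Genes came from the platform annotation, with 34945 probe sets of 1 symbol, 932 of several and 9160 unnamed here; a gene outside the members is represented by its brightest single-symbol probe set. Named genes were all member probe sets, the 3 of each reported pathway list with the smallest p (none passed) with Hvcn1, Spi1 and Irf8, the 2 brightest markers of each of 12 cell type lists, the 3 most like Cybb, and the control probe sets. C1qa and Marco, the macrophage markers not measured, and Cat were named after their values were seen. Of the 6 pathway lists, 1 is counted in the totals and otherwise not reported here. The members and lists were chosen with earlier results of these data known.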

Additional observations from a re-analysis of the deposited data

How the results depend on the processing

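The 13 alternatives were other scalings, pseudocounts, filters and fits, and each array left out in turn. Of 22519 measured probe sets 11 were called; the count was 0 with arrays shifted to 1 median, with no filter on dim probe sets and with no intensity trend, 18 with cyclic loess, 19 with a pseudocount of 64, 7 with 1 probe set per gene, and 1 to 2865 with 1 array left out. The count of called members was 0 under the 8 alternatives that kept all arrays and had no block, and 0 to 2 with 1 array left out; for the other pathway genes it was 0 and 0 to 11. With the replicate number as a block, 334 probe sets were called, 1 of them a member, Cybb 1436778_at (adjusted p = 0.0105), and 5 other pathway genes. The labels do not say that replicate numbers pair the cultures, and deviations of same-numbered arrays had a correlation of 0.066 over probe sets. Cybb, Ncf1, Ncf4, Rac1 and Rac2 kept their sign on the brightest probe sets under all 13. The other filters and fits left each of these differences unchanged. Leaving out 1 array could turn no sign where the groups did not overlap, as for Cybb, Ncf1, Ncf4 and Rac2. Rac1, whose groups overlapped, ran from −0.40 to −0.067 with 1 array left out. Signs turned for Cyba (0.27 as deposited, 0.065 with 1 median, 0.099 with cyclic loess), and, with 1 median, for Cybb 1436779_at (−0.19), Ncf1 1451767_at (−0.17) and Rac1 1451086_s_at (−0.046), as well as for Ncf1 1425609_at as deposited (0.064). With 1 array left out, ranges that crossed 0 were −0.15 to 0.22 and −0.59 to 0.35 for the dimmer Cybb probe sets, −0.085 to 0.054 for Cyba, −0.15 to 0.25 and −0.077 to 0.033 for those of Ncf1, −0.056 to 0.47 for Rac1 1451086_s_at and −0.32 to 0.50 for Rac2 1440208_at. These fits take the spread of the lone array from the other group. The cause of these shifts was not tested.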

Other observations

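Markers of other cell types that marrow can hold are given here by list. The 2 brightest erythroid markers, Slc4a1, the anion exchanger of red cells, and Alas2, of haem synthesis, stood at 2.17 ± 0.44 and 1.23 ± 0.40 (SE). Of the 7 measured erythroid markers, 5 lay above 0 and 2 below. Of megakaryocyte markers all 5 were measured, with a median of 0.24, and Pf4 and Itga2b stood at −0.04 ± 0.19 and 1.28 ± 0.49. Osteoclast markers had 3 measured of 6, with Ctsk at −1.02 ± 0.20 and Acp5 at 0.73 ± 0.36. Stromal markers had 5 of 6, with Dcn at 0.83 ± 0.42 and Pdgfrb at −0.34 ± 0.51. Endothelial markers had 2 of 5, with Egfl7 at 0.16 ± 0.58 and Kdr at −0.99 ± 0.65. B cell markers had 2 of 6, with Vpreb1 at 0.32 ± 0.78 and Cd79a at 0.84 ± 0.51. Eosinophil, basophil and mast cell markers had 2 of 6, with Mcpt8 at 1.34 ± 0.47 and Kit at −0.08 ± 0.52. Dendritic cell markers had 1 of 6, Itgax at −0.76 ± 0.41, T cell markers 1 of 6, Cd8a at −0.92 ± 0.48, and NK cell markers 0 of 4. Limma's test passed 0 of these markers over all measured probe sets, with 7 higher (4 of them erythroid, 2 megakaryocyte) and 1 lower at an unadjusted p under 0.05. The shares of all measured genes at that threshold were 6.22% higher and 6.69% lower.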
